A study of Homo sapiens with 21 samples.

Results

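RefSeq lists 42 protein-coding genes on the numbered chromosomes and X whose symbol is ZBTB followed by a number, of 19974 protein-coding genes there, and these 42 were scored for peaks at both annotated ends in 14 ChIP-seq peak lists. Chromatin immunoprecipitation with sequencing (ChIP-seq) maps where a protein or a histone mark lies on the genome, and here it was used in CAMA1, a breast cancer line labelled as ER-positive and FGFR1-amplified and used at low passage. FGFR1, which as a cell surface kinase receives fibroblast growth factors, was mapped in cells given an siRNA against FOXA1 (siFOXA1), in cells given a non-targeting siRNA (siNT), and in untransfected cells. Untransfected cells were also profiled for H3K27ac (active promoters and enhancers), H3K4me3 (promoters), RNA polymerase II with phosphorylated serine 5 (Pol II S5P, the form near transcription starts) and FOXA1, a forkhead pioneer factor. All cells had 48 h without estradiol, and transfected cells were collected after 72 h. Each of the 7 groups had 2 lists, called per library, and the 7 inputs were not used. Separate cultures are not stated for the 2 libraries of a group, so the spread between them may be technical, and the level of FOXA1 after siFOXA1 was not analysed here. The antibody given for Pol II S5P is a CTD antibody, 4H8.

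ZBTB proteins carry a BTB/POZ domain, through which they form dimers and recruit corepressor complexes or the ubiquitin ligase Cullin-3, and a set of C2H2 zinc fingers that bind DNA. Many act as repressors in cell fate decisions, above all of blood cells. The symbol rule also takes ZBTB8OS, which is named for its position opposite ZBTB8A and encodes a tRNA ligase cofactor without zinc fingers. A gene was called for a target where a region present in both lists of a group lay within 1 kb of either end of the gene. The set was chosen by symbol, and proposed on the basis of its measured peaks at gene ends in these same lists, so the counts are descriptions and carry no test. ZBTB1 and ZBTB25 overlap at their starts and share their peaks. Strand was listed for 36 members, and for the other 6 (ZBTB6, ZBTB10, ZBTB16, ZBTB17, ZBTB40 and ZBTB41) the ends are called lower and upper by coordinate.

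The 6 members below are shown because the FGFR1 summit, the highest point of the strongest peak at the 5' end, fell inside the 250 bases before their listed transcript start in at least 2 of the 6 FGFR1 lists. They were chosen after these values were seen. ZBTB1, ZBTB4, ZBTB24 and ZBTB43 had such a summit in 1 list, untransfected replicate 2, and are not shown. The sequences are RefSeq's (GRCh38.p14), and capitals mark the span between the first and the last FGFR1 summit of the 6 FGFR1 lists within the window. ZBTB18 (chr1:244048403-244048652, plus strand) and ZBTB39 (chr12:57006547-57006796, minus strand) held all 6 of their FGFR1 summits in the window. ZBTB37 (chr1:173868130-173868379, plus strand) held 2 of 6, ZBTB34 (chr9:126860389-126860638, plus strand) 5 of 5, ZBTB21 (chr21:42010361-42010610, minus strand) 3 of 3 and ZBTB49 (chr4:4290001-4290250, plus strand) 2 of 2. The 2 at ZBTB37 were those of siFOXA1 replicate 1 and siNT replicate 2.
ZBTB18: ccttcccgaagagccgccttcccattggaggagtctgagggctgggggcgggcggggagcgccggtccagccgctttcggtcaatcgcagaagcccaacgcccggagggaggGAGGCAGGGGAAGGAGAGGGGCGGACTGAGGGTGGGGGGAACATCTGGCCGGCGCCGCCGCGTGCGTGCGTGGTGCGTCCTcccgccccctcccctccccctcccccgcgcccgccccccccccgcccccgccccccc
ZBTB39: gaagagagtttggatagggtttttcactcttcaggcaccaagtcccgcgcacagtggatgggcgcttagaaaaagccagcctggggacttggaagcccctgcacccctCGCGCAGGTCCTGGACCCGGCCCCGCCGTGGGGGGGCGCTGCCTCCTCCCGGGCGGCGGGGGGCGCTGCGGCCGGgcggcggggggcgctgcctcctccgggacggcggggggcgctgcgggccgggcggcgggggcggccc
ZBTB37: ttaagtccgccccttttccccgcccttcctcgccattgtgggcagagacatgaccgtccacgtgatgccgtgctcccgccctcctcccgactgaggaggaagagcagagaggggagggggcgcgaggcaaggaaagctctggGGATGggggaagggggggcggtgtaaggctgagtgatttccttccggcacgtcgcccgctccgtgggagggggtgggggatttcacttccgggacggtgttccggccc
ZBTB34: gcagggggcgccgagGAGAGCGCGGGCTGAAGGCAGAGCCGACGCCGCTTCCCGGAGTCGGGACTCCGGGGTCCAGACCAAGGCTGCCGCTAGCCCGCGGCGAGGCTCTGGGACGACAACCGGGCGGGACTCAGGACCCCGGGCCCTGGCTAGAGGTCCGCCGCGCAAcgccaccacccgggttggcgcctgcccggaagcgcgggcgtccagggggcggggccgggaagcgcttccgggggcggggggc
ZBTB21: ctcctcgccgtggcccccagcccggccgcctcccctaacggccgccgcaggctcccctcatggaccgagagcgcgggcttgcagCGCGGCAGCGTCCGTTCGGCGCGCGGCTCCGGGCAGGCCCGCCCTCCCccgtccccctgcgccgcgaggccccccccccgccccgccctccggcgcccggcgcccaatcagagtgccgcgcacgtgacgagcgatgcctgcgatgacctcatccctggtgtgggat
ZBTB49: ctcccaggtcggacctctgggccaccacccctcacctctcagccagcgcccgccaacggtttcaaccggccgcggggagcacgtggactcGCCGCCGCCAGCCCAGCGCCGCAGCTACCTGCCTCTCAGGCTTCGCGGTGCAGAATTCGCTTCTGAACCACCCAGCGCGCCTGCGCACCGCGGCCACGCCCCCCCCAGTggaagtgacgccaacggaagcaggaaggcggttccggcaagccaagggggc
These windows were rich in GC. ZBTB18 held 6 GC boxes (GGGCGG on either strand, copies that overlap on a strand counted once), ZBTB39 and ZBTB37 held 4 each, ZBTB34 held 3, ZBTB21 held 2 and ZBTB49 none. Of the 36 members with a listed window, 69.4% held a GC box, against 56.0% of 15812 protein-coding genes. The ETS core CCGGAAG was in 22.2% of ZBTB windows and 11.8% of all windows, the E-box CACGTG in 22.2% and 7.83%, and the CCAAT box (CCAAT) in 44.4% and 34.4%. The forkhead letters TGTTTAC were in 3 ZBTB windows (8.33%), against 2.26% of all, and the TATA box TATAAA was in none of the 36, against 9.25% of all. The NRF1 core GCGCATG was in 2.78% of ZBTB windows and 5.05% of all, and the CRE core TGACGT in 8.33% and 8.65%. Median GC content was 64.6% in ZBTB windows and 62.4% in all windows. Of the 17 windows of members with FGFR1 and the 19 without, 70.6% and 68.4% held a GC box. The ETS core was in 17.6% and 26.3%, the E-box in 29.4% and 15.8%, and the CCAAT box in 23.5% and 63.2%. The forkhead letters and the CRE core were each in 5.88% and 10.5%, and the NRF1 core in 0.0% and 5.26%. Both strands were searched and no test was made.

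The untransfected lists show where FGFR1 sits beside the histone marks, Pol II and FOXA1. It was called at an end of 18 of the 42 ZBTB genes (42.9%), against a background of 19.9% of all protein-coding genes. KLHL genes, which carry the BTB domain with Kelch repeats, had FGFR1 at 6 of 37 (16.2%), and ZNF genes, which are zinc-finger genes, at 103 of 517 (19.9%). The ZBTB genes also had more of the other targets. H3K27ac was called at 40 (95.2%, background 67.5%), H3K4me3 at 39 (92.9%, background 66.6%), Pol II S5P at 28 (66.7%, background 38.9%) and FOXA1 at 23 (54.8%, background 32.3%). The ZBTB share was the highest of the 4 gene sets in each of the 7 groups, and none of these differences was tested, since the set was proposed with the lists known.

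**Figure D1:**
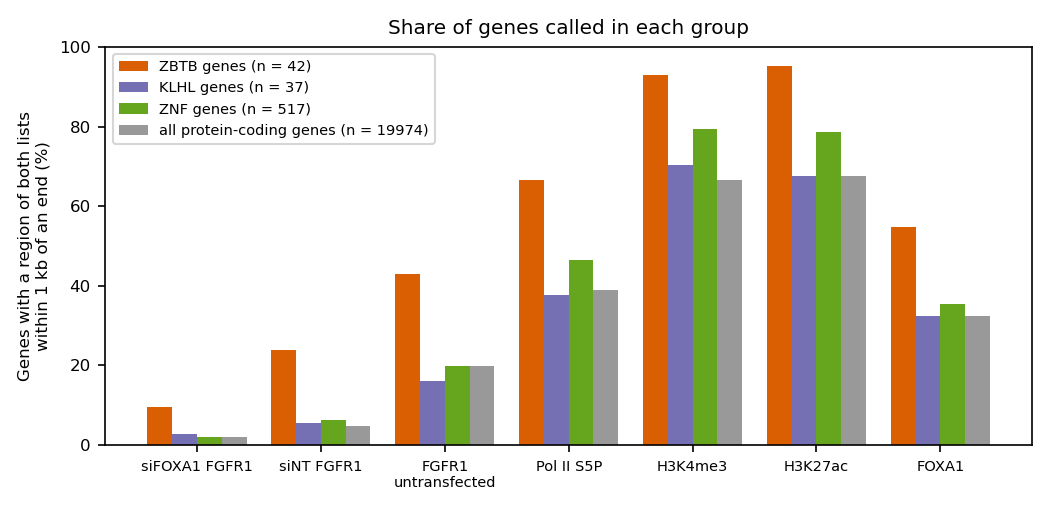
Share of genes (%, y axis) with a region of both lists within 1 kb of an end, in each group (x axis), for 42 ZBTB, 37 KLHL, 517 ZNF and all 19974 protein-coding genes. The orange ZBTB bar is the highest in every group, with 42.9% for untransfected FGFR1 against 19.9% of all genes.

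FGFR1 at ZBTB genes went with Pol II S5P. It was called at 16 of the 28 members with Pol II S5P (57.1%, background 47.4% of all genes with Pol II S5P) and at 2 of the 14 without (14.3%, background 2.44%). It was called at 14 of the 23 members with FOXA1 (60.9%, background 35.6%) and at 4 of the 19 without (21.1%, background 12.5%). All 18 members with FGFR1 also had H3K4me3, called at 39 (background for FGFR1 among genes with H3K4me3, 29.9%), and H3K27ac, called at 40 (background 29.5%). The 2 with FGFR1 and no Pol II S5P call were ZBTB20, a repressor of fetal liver genes in mouse, and ZBTB2, and each had a Pol II S5P peak in replicate 1 only (fold enrichments of 5.37 and 4.93). All 5 targets were called at 12 members, 4 at 14, 3 at 4, 2 at 9, 1 at 2 and none at 1, ZBTB40. This split was not counted over all genes.

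The untransfected FGFR1 lists were uneven, with 5341 peaks in replicate 1 and 13135 in replicate 2. A peak lay at an end of 17 ZBTB genes in replicate 1 (background 19.9%) and of 31 in replicate 2 (background 41.2%). No member had a peak in replicate 1 only, and 11 had none in either list. The 18th call, ZBTB25, rests on the region it shares with ZBTB1, whose replicate 1 peak lies outside its own window. The 13 members with a peak in replicate 2 alone and no call ranked low to middling there, between percentile 12.8 (ZBTB8OS and ZBTB33) and percentile 70.1 (ZBTB22) of that list by fold enrichment. They were ZBTB5, ZBTB6, ZBTB8OS, ZBTB10, ZBTB11, ZBTB14, ZBTB17, ZBTB22, ZBTB24, ZBTB26, ZBTB33, ZBTB43 and ZBTB48. No FGFR1 peak at an end was listed for ZBTB3, ZBTB7C, ZBTB8A, ZBTB8B, ZBTB9, ZBTB16, ZBTB38, ZBTB40, ZBTB44, ZBTB46 and ZBTB47.

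**Figure D2:**
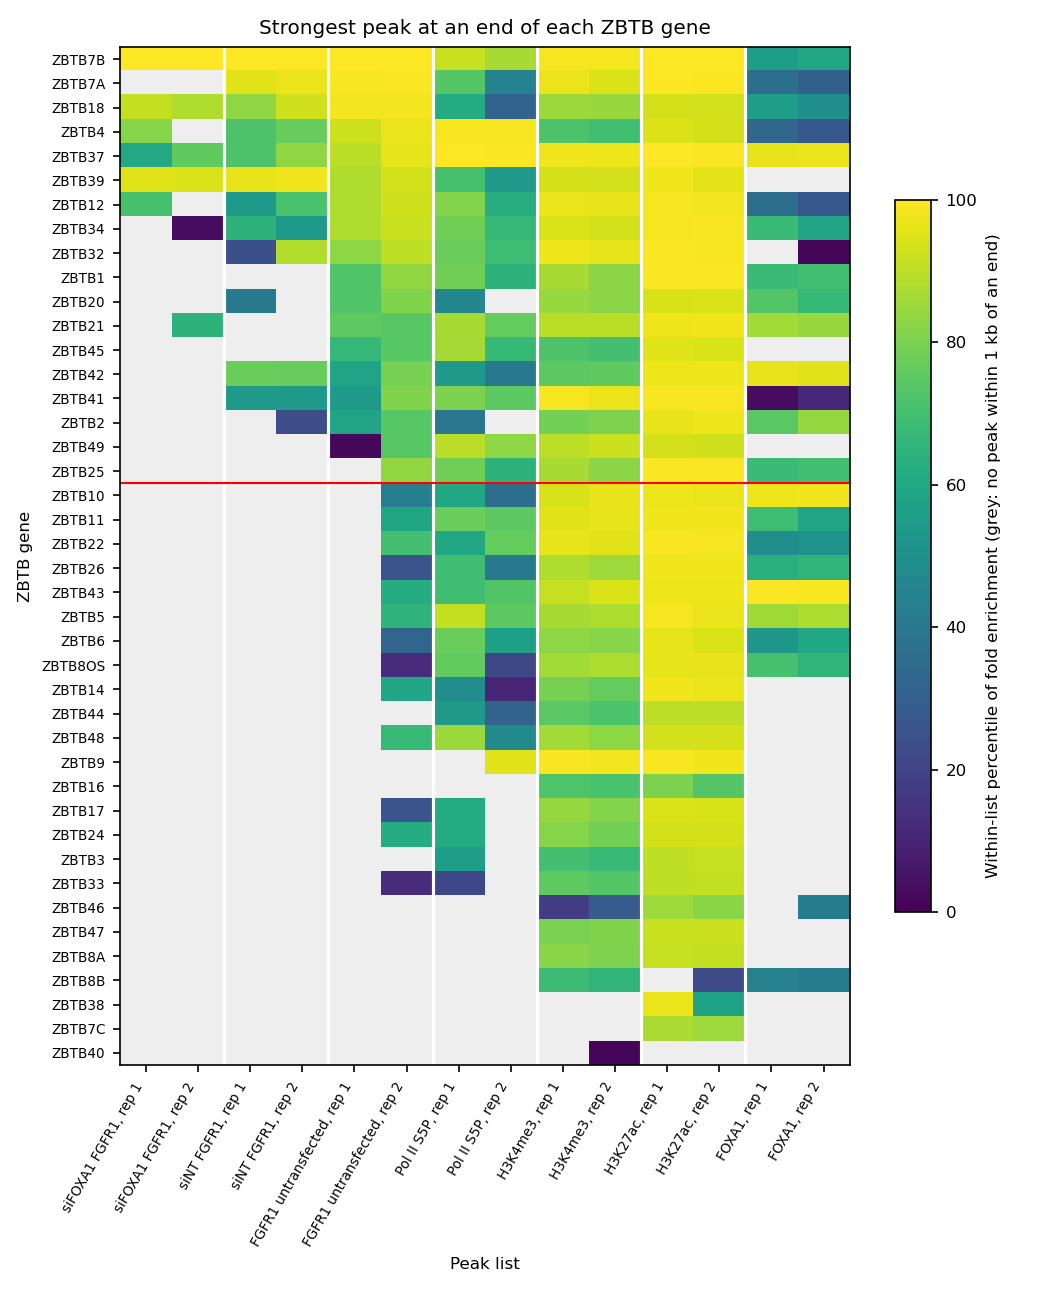
Within-list percentile of fold enrichment (colour, 0 to 100) of the strongest peak at an end of each of the 42 ZBTB genes (rows) in the 14 lists (columns); grey means no peak within 1 kb of an end, and the red line divides the 18 genes with FGFR1 called in untransfected cells (above) from the other 24. ZBTB7B is near 100 in all 6 FGFR1 lists, and 11 genes have no untransfected FGFR1 peak in either list.

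ZBTB7B encodes the factor that commits mouse T cells to the CD4 lineage. Of the 42 members it had the strongest FGFR1 peak at a gene end, the value by which it was singled out. The gene lies on the plus strand of chromosome 1 from 155001750 to 155018523 (hg38), and the peak is at its 3' end, in the region from 155017276 to 155017894. The fold enrichment there, the authors' own ratio over background, was 39.2 and 44.7 in the siFOXA1 lists, 70.3 and 74.9 in the siNT lists, and 37.3 and 43.5 in the untransfected lists. Among all peaks of its list it ranked 11 and 6 after siFOXA1, 4 and 5 after siNT, and 3 and 4 in untransfected cells. It was thus near the top of every FGFR1 list, while the siFOXA1 values lay below the siNT values without overlap. Their summits lay between 827 and 847 bp inside the gene's end in all 6 lists. An end of the neighbouring gene DCST2 lies 4 bp from that of ZBTB7B, so the peak is at an end of both genes. Exons, introns and UTRs were not given in the table used.

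The 5' end of ZBTB7B carried a weaker FGFR1 peak upstream of the start. Its fold enrichment was 13.5 and 9.38 in the siFOXA1 lists, 12.6 and 11.3 in the siNT lists, and 13.9 and 18 in the untransfected lists. The promoter mark had the opposite order between the ends. H3K4me3 had fold enrichments of 15.3 and 12.5 at the 3' end, percentiles 56.8 and 51.4 of those lists, and 106 and 109 at the 5' end, percentile 98.7 in both. Pol II S5P was similar at both ends, at 12.6 and 9.46 (3') and 13.5 and 10.8 (5'), and so was FOXA1, at 6.1 and 6.0 (3') and 7.3 and 7.5 (5'). A single H3K27ac region of 30751 bp covered the whole gene. Its peaks were 25586 and 28311 bp wide in the single lists, wider than 99.94% and 99.97% of the peaks there and the widest at any ZBTB gene.

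**Figure D3:**
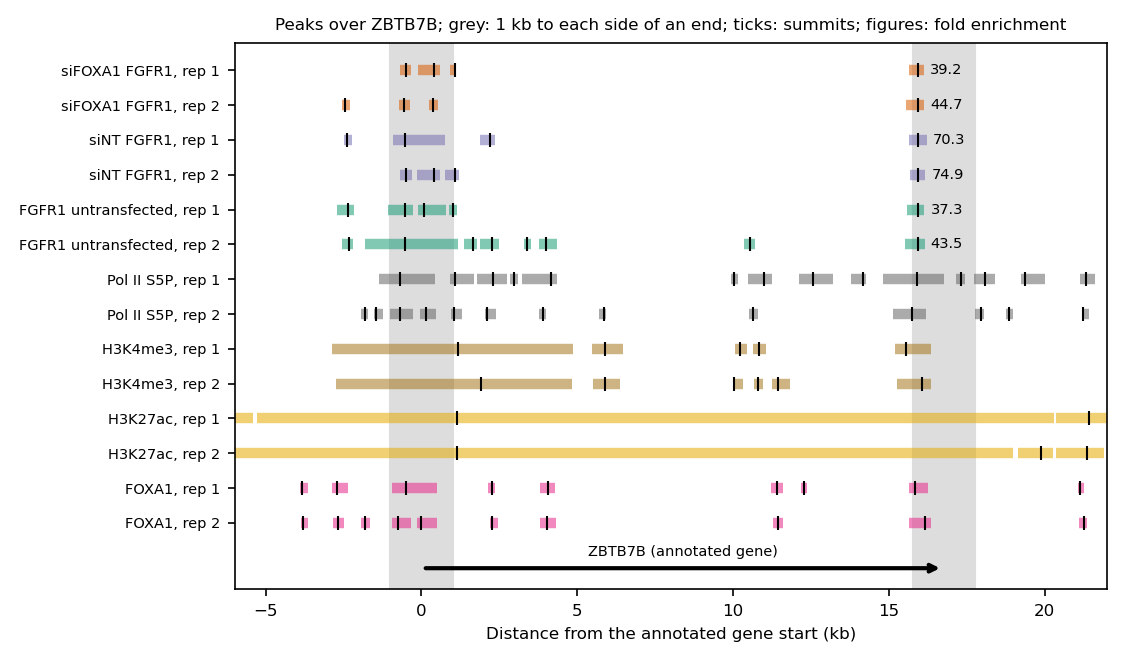
Peaks of the 14 lists (rows) over ZBTB7B, by distance from the annotated gene start (kb, x axis); black ticks are summits, grey bands 1 kb to each side of an end, and printed figures the fold enrichment of the 3' FGFR1 peak. The 3' peak is in all 6 FGFR1 lists (39.2 and 44.7 siFOXA1, 70.3 and 74.9 siNT, 37.3 and 43.5 untransfected) and overlaps a weaker H3K4me3 peak apart from the broad one over the gene start.

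FGFR1 peaks were crowded around ZBTB7B. The 1-Mb window that holds its start had 34 and 45 FGFR1 peaks in the siFOXA1 lists, 47 and 61 in the siNT lists and 36 and 71 in the untransfected lists. The mean over all 3043 windows was 1.42 and 1.66 (siFOXA1), 1.97 and 2.17 (siNT) and 1.76 and 4.32 (untransfected). Of the 42 members only ZBTB7B lay in one of the 34 windows with over 10 times the mean count of the transfected lists. The 12 lists whose fold enrichments fell on a regular grid were called against 1 background value each, and the part of copy number in these values was not tested.

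Behind ZBTB7B, the FGFR1 peaks were strongest at ZBTB7A, ZBTB18, ZBTB4, ZBTB37 and ZBTB39, ordered by the mean percentile of both untransfected lists. ZBTB7A (also LRF), a repressor of fetal globin, lies on the minus strand of chromosome 19 from 4043303 to 4066899. It had fold enrichments of 19.3 and 22 (percentiles 99.2 and 99.4), with the summit 1152 and 1172 bp inside its 5' end. ZBTB18 (RP58; chromosome 1, 244048491 to 244057476, plus strand), a repressor needed for cortical neurons in mouse, had 15.2 and 17.5 (98.1 and 98.2). ZBTB4 (chromosome 17, 7459378 to 7484249, minus strand), one of the readers of methylated CpG, had 10.0 and 14.9 (92.2 and 96.9). These genes had FGFR1 at the 5' end only, while ZBTB7B had it at both ends with the stronger peak at the 3' end. ZBTB37 (chromosome 1, 173868082 to 173903547, plus strand) had 9.1 and 14 (89.7 and 96.1), also at the 5' end. ZBTB39 (chromosome 12, 56998836 to 57006546, minus strand) had 8.64 and 11.5 (88.0 and 93.1), again at the 5' end.

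The other targets at these leading members were present in most lists, in an order that differed from that of FGFR1. At the 5' end of ZBTB7A, Pol II S5P had fold enrichments of 8.68 and 5.89 and H3K4me3 of 104 and 104, while FOXA1 (5.22 and 4.69) was at the 3' end. ZBTB18 had Pol II S5P at 6.92 and 5.22, H3K4me3 at 92.0 and 93.9, H3K27ac at 24.9 and 26.1 and FOXA1 at 7.30 and 6.19. ZBTB4, with Pol II S5P at 23.9 and 23.5, had H3K4me3 of only 65.3 and 63.0, H3K27ac at 28.5 and 26.4 and FOXA1 at 5.01 and 4.5. Of ZBTB7A, ZBTB18, ZBTB4 and ZBTB39, ZBTB4 thus had the highest Pol II S5P and the lowest H3K4me3. At ZBTB37 Pol II S5P was higher (33.8 and 24.9). An end of POLR2A lies 117 bp from the 5' end of ZBTB4. The Pol II S5P summits lay 169 and 164 bp before the start of ZBTB4, and the FGFR1 summits 533 and 146 bp, so both genes are near them. ZBTB39 had no FOXA1 peak at an end, with Pol II S5P at 8.24 and 6.56, H3K4me3 at percentiles 93.5 and 93.0 of those lists and H3K27ac at 38.8 and 34.1.

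The next members lay closer together, and their order is not firm. ZBTB12 had 8.64 and 11.3, ZBTB34 had 8.64 and 10.7, and ZBTB32, a repressor in mouse lymphocytes, had 7.73 and 10.2. ZBTB1, needed for lymphoid development in mouse, had 6.60 and 8.44, ZBTB20 had 6.60 and 7.99, and ZBTB21 had 6.82 and 7.11. ZBTB12, ZBTB34 and ZBTB39 had the same fold enrichment in replicate 1, and ZBTB1 and ZBTB20 likewise. The last 6 were ZBTB45, ZBTB42, ZBTB41, ZBTB2, ZBTB49 and ZBTB25, between fold enrichments of 3.64 (ZBTB49) and 8.44 (ZBTB25), with ZBTB49 at percentile 2.2 in replicate 1 and percentile 74.2 in replicate 2.

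At the next members Pol II S5P stayed below its values at ZBTB4. At ZBTB12 it was 10.2 and 7.23 (5'), with H3K4me3 at 77.0 and 73.4 (5') and 104 and 106 (3'), H3K27ac at 39.5 and 41.6 (5') and FOXA1 at 5.22 and 4.5 (3'). ZBTB34 had Pol II S5P at 9.56 and 7.67, H3K27ac at 43.8 and 53.0 and FOXA1 at 9.81 and 7.31. ZBTB32 had Pol II S5P at 9.34 and 7.90 and H3K27ac at 51.3 and 50.3, all at the 3' end, and FOXA1 in replicate 2 only (3.0). ZBTB1 was close to ZBTB34 in Pol II S5P, and in FOXA1 in replicate 1 but not in replicate 2. At ZBTB1, Pol II S5P was 9.56 and 7.45, H3K4me3 94.2 and 91.3, H3K27ac 51.7 and 54.4 and FOXA1 9.81 and 9.75. ZBTB20 had H3K4me3 at 91.5 and 91.3, H3K27ac at 25.6 and 29.3 and FOXA1 at 11.5 and 9.0, all at the annotated 5' end. At its listed transcript start, which lies far inside the gene, none of H3K4me3, H3K27ac, FOXA1 and FGFR1 was called. ZBTB21 had Pol II S5P at 11.8 and 8.79 and H3K27ac at 38.3 and 42.1 at its 5' end, and FOXA1 at 19.4 and 17.1 at its 3' end.

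FGFR1 was at the 5' end only in 14 of the 18 members, at the 3' end only in 2, at both in ZBTB7B, and at the upper end of ZBTB41, whose strand was not listed. The split by end was not counted over all genes. The 2 members with FGFR1 at the 3' end only lay near another gene, which was not particular to them. Among members with FGFR1 at the 5' end, that end is 97 bp from LYAR at ZBTB49 and 117 bp from POLR2A at ZBTB4. At ZBTB34, in contrast, the nearest end of another gene is 22429 bp away. The 3' end of ZBTB32 is 965 bp from KMT2B, a histone methyltransferase gene, with an FGFR1 summit 862 and 864 bp past that end and H3K4me3 of 104 and 105 there. No H3K4me3 region was called at the 5' end of ZBTB32. The 3' end of ZBTB45 is 1538 bp from SLC27A5, and its FGFR1 and H3K4me3 calls were at that end too. In untransfected replicate 2 ZBTB45 had a stronger FGFR1 peak (9.77, against 7.11 at the 3' end) 6.2 kb from its nearest end. In replicate 1 the peak at the 3' end (6.14) was the strongest. The siNT lists had a peak 6.2 and 6.1 kb from the nearest end (5.02 and 5.33), and the siFOXA1 lists had none in the gene. Within 1 kb of the listed transcript start, 15 members had FGFR1, where the background was 20.0% of 15812 genes. ZBTB9 was added there, ZBTB20, ZBTB32 and ZBTB45 were no longer called, and ZBTB41 has no listed start.

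Median distance from the end to the summit of the strongest peak, among these 18 members, was 166 and 142 bp for FGFR1, 423 and 376 bp for Pol II S5P and 669 and 747 bp for FOXA1. FOXA1 summits lay within 500 bp of the end in 4 of 14 and 4 of 15 members, FGFR1 summits in 11 of 17 and 12 of 18. Some members had FGFR1 and Pol II S5P summits close together and others did not. At ZBTB37, FGFR1 lay 123 and 122 bp and Pol II S5P 129 and 121 bp before the start. At the same gene the FOXA1 summit was 1013 and 1016 bp inside. At ZBTB34 the FGFR1 summits were 101 and 83 bp and the Pol II S5P summits 95 and 110 bp before the start. At ZBTB18, in contrast, FGFR1 lay 58 and 87 bp inside the annotated gene start, which is upstream of the listed transcript start used for the printed window, and Pol II S5P 413 and 374 bp before it. Distances are from the annotated end that carries the strongest peak of that target, and were not tested. For FOXA1 this was the 3' end at ZBTB7A, ZBTB12 and ZBTB21, where FGFR1 was at the 5' end. At ZBTB7B it was the 5' end, against the 3' end for FGFR1. The members were chosen by FGFR1 near an end, and distances over all genes were not computed.

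**Figure D4:**
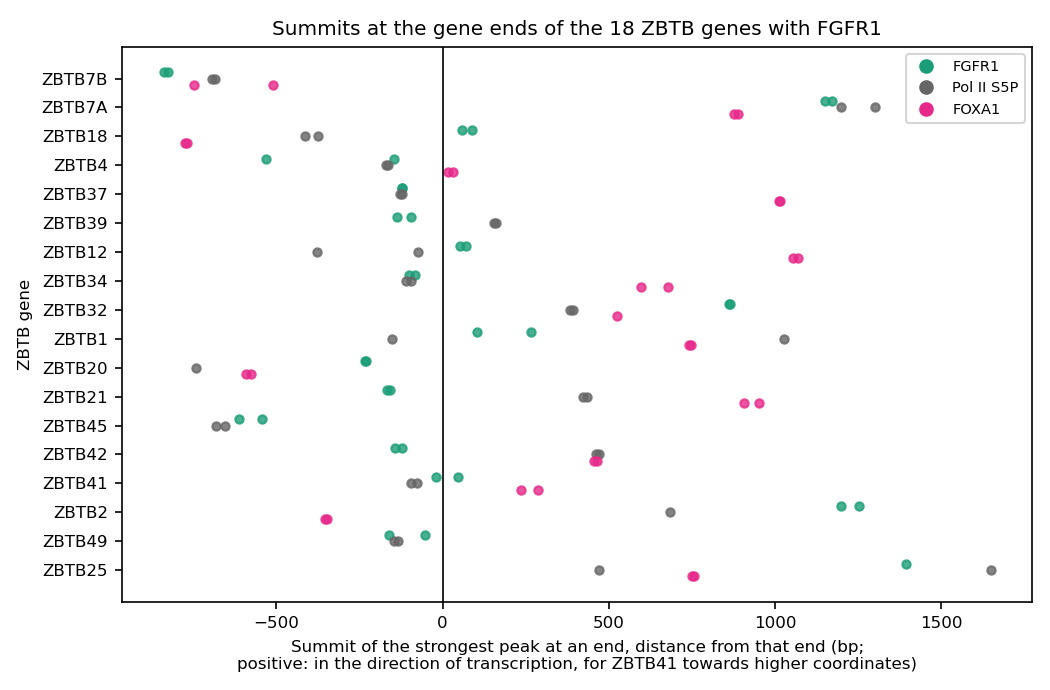
Summit of the strongest FGFR1, Pol II S5P and FOXA1 peak at an end (1 point per list) of the 18 ZBTB genes with FGFR1 (rows), by distance from that end (bp, x axis; 0 is the end). FGFR1 points lie mostly within 500 bp of the end (medians 166 and 142 bp), and FOXA1 points mostly farther out (669 and 747 bp).

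Other targets had other leaders. H3K27ac was led by ZBTB7B (66.8 and 69.0) and ZBTB7A (56.5 and 57.3). H3K4me3 was led by ZBTB7B (106 and 109) and ZBTB9 (106 and 108). The values at strong promoters lay close together, and the highest in the lists were 110 and 114. In fragments at the summit the highest was 400 in both H3K4me3 lists, against 386 and 383 at ZBTB7B and 388 and 379 at ZBTB9. Whether 400 was a ceiling was not tested, so the order of the H3K4me3 leaders is not firm. Pol II S5P was strongest at ZBTB37 (33.8 and 24.9) and ZBTB4 (23.9 and 23.5). FOXA1 was strongest at ZBTB43 (60.3 and 52.9) and ZBTB10 (44.2 and 42.9), neither of which had an FGFR1 call. At ZBTB43 the FOXA1 summit lay 1576 and 1578 bp before the start, and at ZBTB10 it lay 101 bp from the lower end in both lists. ZBTB37 was the member that stood high for all targets, with FOXA1 at 40.3 and 40.5 and H3K27ac at 58.0 and 56.4. An end of the snoRNA gene SNORD74 lies 337 bp from the 5' end of ZBTB37, so both genes are near these peaks.

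Some ZBTB genes lacked one or more marks of an active end. ZBTB38, a methyl-CpG reader, and ZBTB7C had no H3K4me3 peak at an end in either list, and ZBTB40 had one in replicate 2 only. In all of them H3K4me3 lay elsewhere in the gene. In ZBTB40 it was 23.3 kb inside the lower end (percentiles 84.6 and 85.7 of those lists), in ZBTB38 78.3 kb inside (87.6 and 90.2), and in ZBTB7C 2948 and 2946 bp from the upper end (82.8 and 81.7). The second kind, with H3K4me3 called and no Pol II S5P peak in either list, comprised ZBTB8A, ZBTB8B, ZBTB16 (PLZF, a factor of innate-like T cells), ZBTB46 (a marker of classical dendritic cells) and ZBTB47. The third kind had H3K4me3 called and Pol II S5P in replicate 1 only. Beside ZBTB20 and ZBTB2, given above, it comprised ZBTB3, ZBTB17 (MIZ1, the partner through which MYC represses genes), ZBTB24 and ZBTB33 (Kaiso, a methyl-CpG reader), at fold enrichments of 4.27 to 6.92.

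ZBTB40 had strong FGFR1 away from its annotated ends. Its FGFR1 peak, 23 kb inside the lower end and beside the internal H3K4me3 peak, had fold enrichments of 18.9 and 26.0 in the untransfected lists (percentiles 99.1 and 99.8). In the siFOXA1 lists there was no FGFR1 peak in the gene, against 8.47 and 5.64 in the siNT lists at the same place. ZBTB9 was just outside the window, with a region 1084 bp from its end (7.28 and 7.11). ZBTB6 was farther out, with a region 2381 bp away. Inside the window but short of the end itself were the regions of ZBTB2 at 829 bp, ZBTB45 at 402 bp and ZBTB25 at 56 bp. With peaks anywhere in the gene or within 1 kb counted, 20 members had FGFR1 in both untransfected lists. The same count was not made over all genes, and a longer gene has more room for a peak, so no background stands beside it. ZBTB9, ZBTB40 and ZBTB45 were looked at in this way after their values were seen.

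The siFOXA1 and siNT lists ask what FOXA1 knockdown does to FGFR1 on the genome. FGFR1 was called at 4 ZBTB genes after siFOXA1 (9.52%, background 1.95%) and at 10 after siNT (23.8%, background 4.85%), all 10 among the 18 of untransfected cells. In single lists a peak lay at 6 and 6 ZBTB genes after siFOXA1 (background 4.24% and 3.58%) and at 12 and 12 after siNT (background 7.55% and 8.65%). The lists themselves were shorter after siFOXA1, with 4332 and 5056 peaks, against 6007 and 6594 after siNT. The siNT and untransfected lists differ in depth and cannot be set side by side as levels.

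The 4 members with a peak at the same end in all 4 transfected lists were ZBTB7B, ZBTB18, ZBTB37 and ZBTB39 (background 1.88% of all genes, or 37.2% of the 1011 genes with a peak at the same end in both siNT lists). ZBTB39 had fold enrichments of 10.3 and 8.44 in the siFOXA1 lists, against 13.8 and 17.2 in the siNT lists. ZBTB18 had 7.72 and 6.25 in the siFOXA1 lists, against 6.59 and 9.08 in the siNT lists. ZBTB37 had 5.15 and 5.32 in the siFOXA1 lists, against 5.65 and 6.58 in the siNT lists. The siFOXA1 values lay below both siNT values at ZBTB39 and ZBTB37, and the groups overlapped at ZBTB18. ZBTB37 left these 4 at a -log10 q of at least 5 and with 50% reciprocal overlap, and ZBTB7B left them with crowded windows removed.

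Mean fold enrichment after siFOXA1 over that after siNT was 0.578 at the 3' end of ZBTB7B, 0.604 at ZBTB39, 0.856 at ZBTB37, 0.891 at ZBTB18 and 0.960 at the 5' end of ZBTB7B. Over all 385 gene ends with a peak in the 4 lists, the median ratio was 0.804 (quartiles 0.674 and 0.915), and 87.8% were below 1. The 3' end of ZBTB7B and ZBTB39 were thus below the lower quartile, and the other 3 ends were inside or above the quartiles. By rank within a list, the strongest peak of ZBTB7B was at percentiles 99.77 and 99.90 after siFOXA1 and 99.95 and 99.94 after siNT, a mean difference of -0.11 percentile points. That difference is a description without a test, since ZBTB7B was singled out by these peaks, a percentile near 100 has little room to move, and 2 lists against 2 cannot give a two-sided exact permutation p below 0.333.

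Both siNT lists and no siFOXA1 list had a peak at an end of 3 members, ZBTB7A, ZBTB32 and ZBTB42 (background 1.77% of all genes, or 34.9% of the 1011). ZBTB42 had no siFOXA1 peak anywhere in the gene, against siNT fold enrichments of 5.96 and 5.95. ZBTB32 likewise had no siFOXA1 peak, against siNT values of 4.39 and 7.52. Its call ended with 500 bp windows, at a -log10 q of at least 5 and with lists of equal length, where ZBTB34 joined the 3 in its place. In fragments at the summit, the siNT peaks of ZBTB42 held 18 and 18 and those of ZBTB32 13 and 23. ZBTB7A is a matter of the window's edge. Both siFOXA1 lists hold its peak, with fold enrichments of 13.8 and 13.1 and summits 1149 and 1175 bp inside the 5' end, against 11.6 and 14.4 at 1180 and 1169 bp in the siNT lists. The siFOXA1 peaks lie just beyond 1 kb, and with windows of 3 kb ZBTB7A counts among the genes with a peak in all 4 lists. No member had a peak in both siFOXA1 lists and neither siNT list (background 0.100%).

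The rest of the members with siNT peaks were mixed. ZBTB4 (6.11) and ZBTB12 (5.47) had a peak in siFOXA1 replicate 1 only and ZBTB34 (3.75) in siFOXA1 replicate 2 only, against 5.65 and 5.95, 5.02 and 5.64, and 5.34 and 5.01 in the siNT lists. Within their lists these peaks ranged from percentile 3.3 (ZBTB34 after siFOXA1) to percentile 82.0 (ZBTB4 after siFOXA1). At ZBTB12 the siFOXA1 peak did not overlap the siNT peaks. Its summit lay 511 bp inside the 5' end, and the siNT summits lay 300 bp before that end. ZBTB41 had peaks at different ends in the siNT lists, and ZBTB2 and ZBTB20 had a peak in 1 siNT list. ZBTB21 had a peak in siFOXA1 replicate 2 only (5.0). The other 28 members had no peak at an end in any transfected list.

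**Figure D5:**
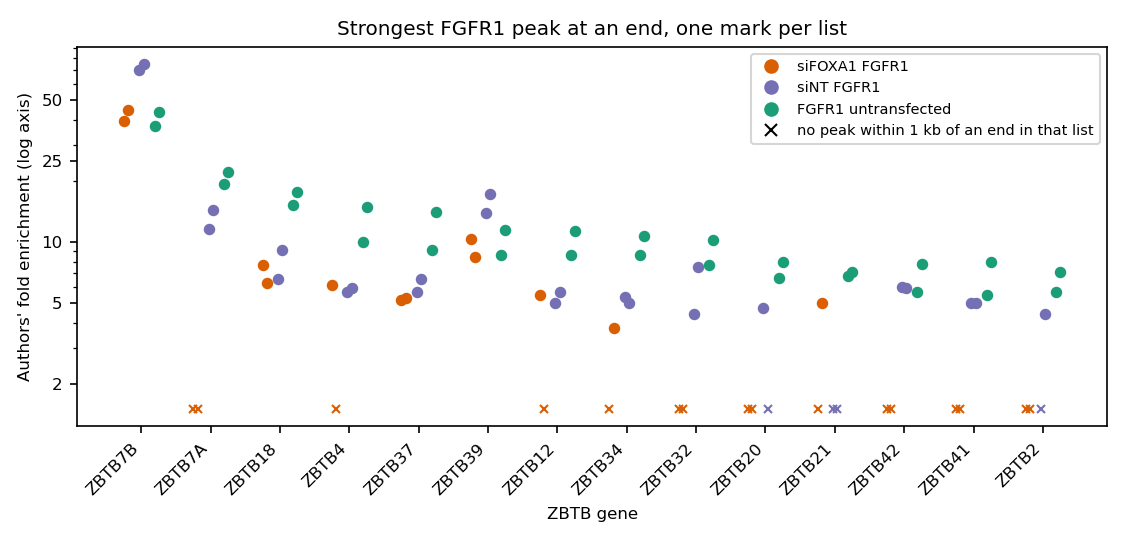
Fold enrichment (log axis) of the strongest FGFR1 peak at an end in the 14 ZBTB genes with a peak in at least 1 transfected list (x axis), 1 mark per list for siFOXA1, siNT and untransfected cells; crosses at the foot mark lists with no peak within 1 kb of an end. ZBTB7B stands apart (39.2 and 44.7 siFOXA1, 70.3 and 74.9 siNT), and for ZBTB7A both siFOXA1 crosses stand for peaks of 13.8 and 13.1 just outside the window.

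By role, FGFR1 in untransfected cells was called at 5 of 8 members known as blood and immune lineage factors (ZBTB7B, ZBTB7A, ZBTB20, ZBTB32 and ZBTB1, without ZBTB16, ZBTB24 and ZBTB46), at 1 of 3 methyl-CpG readers (ZBTB4, without ZBTB33 and ZBTB38) and at neither of the 2 telomere-binding members (ZBTB10 and ZBTB48). Of 8 BTB zinc-finger genes with other names it was called at 4, MYNN, ZNF131, GZF1 and PATZ1, and not at BCL6, BCL6B, HIC1 or HIC2. PATZ1 was the strongest of them (13.9 and 17.1) and was also called in both transfected groups. Of 8 corepressor and Cullin-3 partner genes, FGFR1 was called at 5. These were the ligase scaffold CUL3 (12.5 and 15.3), its RING partner RBX1 (10.9 and 11.8), the deacetylase HDAC3 (6.60 and 13.1), the corepressor NCOR1 (4.55 and 4.44) and SIN3A, which had a peak in its window in replicate 2 alone (6.0). The role groups are ZBTB genes, so their FGFR1 shares stand beside the 42.9% of the 42 members as well as the background of 19.9%. For the genes outside the family the background is 19.9%. FOXA1 was called at none of these 8, against a background of 32.3%, and none of these counts was tested.

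As a check of the cell type, H3K4me3 was called at an end of 7 of 8 luminal marker genes (not ESR1), 2 of 5 basal or mesenchymal genes (SNAI2 and ZEB1) and 2 of 4 lymphoid or myeloid genes (CD14 and CD3E), with a background of 66.6%. Pol II S5P was called at 7 of the luminal genes and at none of the other 9 (background 38.9%). H3K27ac was called at 8 of 8 luminal, 3 of 5 basal or mesenchymal and 1 of 4 lymphoid or myeloid genes (background 67.5%). FOXA1 did not follow this order, with 6 of 8, 1 of 5 and 3 of 4 (background 32.3%). The FGFR1 lists rest on a background of 2.11 and 2.20 fragments per position after siFOXA1, 2.19 and 2.19 after siNT and 3.4 and 3.5 in untransfected cells, as read from the fold enrichments.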

How the data were processed

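Peak lists of FGFR1 ChIP-seq after siFOXA1, after siNT and in untransfected CAMA1 cells were used as deposited, with those of the histone marks, Pol II S5P and FOXA1, 2 per group. The submitters' processing notes name Bowtie2, SAMtools, Picard and MACS2 and the build hg38, without versions or roles. The authors called peaks per library and deposited for each peak a fold enrichment (a ratio over background), a -log10 p-value and a -log10 q-value. The deposited fold enrichment was used only to rank peaks within a list and to describe them, and the -log10 q-value only for a stricter threshold. Peak names inside the lists give FOXA2 for FOXA1 and other replicate numbers for untransfected FGFR1, and the labels were followed.

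Gene ends came from RefSeq (GRCh38.p14), strand and promoter sequence from its promoter table. Regions of both lists overlap by at least 1 bp, and a gene was called within 1 kb of either end. The mean percentile over both untransfected lists ordered the members with FGFR1, and the first 12 are given with values. The members, gene lists and rules were chosen with earlier results of these data known. Counting was tested on simulated data: 200 of 200 planted genes were recovered, and 0 of 19974 genes differed from a direct search.

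Alternatives were windows of 500 bp and 3 kb, a -log10 q of at least 5, 50% reciprocal overlap, each list left out, ends with H3K4me3, lists of equal length, ranking by -log10 q and pairing by replicate number. The 5' ends, the listed transcript start, the removal of crowded windows, the promoter motifs and the search inside ZBTB9, ZBTB40 and ZBTB45 were added after seeing the data. An exact permutation test over 4 libraries had been planned for ZBTB7B, but its p-value is not used because the gene was chosen on the same peaks (scipy 1.17.1, pandas 2.3.3, Python 3.11.15). The labels do not say that replicate numbers pair the libraries. Background in fragments was read from the grid of fold enrichments (tolerance 0.0001), which the Pol II S5P lists did not allow.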

Additional observations from a re-analysis of the deposited data

How the results depend on the processing

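Most of the 109 recomputed values were counts of genes, which have no direction and cannot reverse. Of the 109, 102 were taken as unchanged. For a count this meant within 1.5 times the reported count, and for the percentile difference of ZBTB7B the same sign. A further 6, all counts, moved by more than that, and 1 percentile difference changed sign. The count of ZBTB genes with FGFR1 was 17 to 31 when 1 untransfected list was left out (31 without replicate 1, 17 without replicate 2), and 12 of the 18 calls remained with 50% reciprocal overlap (without ZBTB1, ZBTB7A, ZBTB20, ZBTB25, ZBTB32 and ZBTB42). ZBTB2 was not called with 500 bp windows, nor ZBTB49 at a -log10 q of at least 5. FOXA1 was called at 15 members within 1 kb of the listed transcript start, against 23 at either end (background 27.9% of genes with a listed start). Leaving out 1 transfected list gave 4 to 5 members with a peak in siNT and none in siFOXA1 (5 without siFOXA1 replicate 1, without siNT replicate 1 and without siNT replicate 2), 0 to 1 with the reverse (ZBTB21, without siFOXA1 replicate 1) and 4 to 6 with both. The percentile difference of ZBTB7B turned to 0.605 with 500 bp windows, because its 3' peak lies farther than that from the end and the 5' peak is then read. Elsewhere it stayed negative and moved in size, to -0.384 at a -log10 q of at least 5, to -0.291 outside crowded windows, and between -0.176 (without siFOXA1 replicate 2) and -0.0436 (without siFOXA1 replicate 1) with 1 list left out, from -0.11 as reported. With the replicate block it was -0.11, since pairing leaves a mean difference as it is. With crowded windows left out, ZBTB7B drops from the 18, and 17 remain. The lists hold no reads, so a peak missed in a list cannot be told from a signal just under the caller's threshold.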
